A study of Drosophila melanogaster with 15 samples.

Results

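Loss of *CSE* was examined in fly heads by setting 3 libraries of the strain *CSE-/-* against 2 libraries of the control strain, 5 of the 15 libraries of the series. The libraries were taken by the strain named in their labels, and polyadenylated RNA from the heads of naive males on day 5 was the material in both groups, with pooled heads for each replicate. *CSE-/-* (replicates 1, 3 and 4) is a single strain made with CRISPR/Cas9 by the authors. The control (replicates 1 and 3), given as WT in the labels, is stock 58492, which carries mutations in *yellow* and *white*, a Cas9 transgene driven by the *Act5C* promoter and a mutation of the DNA ligase gene *DNAlig4*. The deletion strains carry the *yellow* and *white* mutations too. As 1 strain stands for the deletion, the effect of losing *CSE* and any other difference between the strains cannot be told apart from these 5 libraries. For that reason strains (1) and (2) that lack both *CBS* and *CSE*, named here the double deletion (5 libraries), are also used. They are set against strains *CBS-/-*(5) and *CBS-/-*(8) (5 libraries). This gives the loss of *CSE* on a *CBS-/-* background in libraries that the first comparison does not use. It is again a comparison of strains, so the loss of *CSE* and other strain differences cannot be told apart there either.

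*CSE* encodes cystathionine γ-lyase, the enzyme that closes the transsulfuration pathway. Homocysteine, formed from methionine, is joined to serine by cystathionine β-synthase (*CBS*) to give cystathionine, and *CSE* splits cystathionine into cysteine. Both enzymes, and *MST* (3-mercaptopyruvate sulfurtransferase), can also release hydrogen sulfide, a gas with signalling roles in the nervous system. Cysteine is in turn the limiting substrate of glutathione, so the pathway links methionine use to the handling of oxidants.

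The *CSE-/-* libraries held 10285508 to 14687264 reads counted on genes and the control libraries 7316556 and 8336766. Levels are given as CPM (counts relative to the library total, scaled by the TMM method), and a floor of 3 counts lay between 0.204 and 0.292 CPM of plain library size in *CSE-/-* and at 0.360 and 0.410 in the control. Replicates correlated at r of 0.938 to 0.967 within *CSE-/-* and at 0.966 between the control libraries, across genes on the log2 scale. Photoreceptor markers of the head were abundant, with a summed level of 44307 to 52037 CPM in *CSE-/-* and 41563 and 41672 CPM in the control, whereas 8 markers of the male germline and accessory gland summed to at most 6.60 CPM in *CSE-/-* and 0.497 CPM in the control. In *CSE-/-* replicate 3 the summed level of cytosolic ribosomal protein genes was 93526 CPM, against 184488 and 207147 CPM in the other *CSE-/-* libraries and 174885 and 225161 CPM in the control. The part of that library in the results was examined by leaving it out.

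Expression of *CSE* itself was nearly lost. The gene (FBgn0000566, *Cth* in the annotation) lies on chromosome arm 2R of BDGP6 from 18627918 to 18629395. It was measured at 0.733, 1.20 and 1.18 CPM in *CSE-/-* replicates 1, 3 and 4, against 32.6 and 38.7 CPM in control replicates 1 and 3. Each *CSE-/-* library lay below both control libraries, and the log2 fold change (*CSE-/-* over control) was -5.10 (standard error 0.32, edgeR adjusted p = 0.000259). The remaining 10 to 19 counts per *CSE-/-* library were above the floor of 3 counts.

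The genes that flank the deletion did not pass the test. Within 100 kb of *CSE*, 19 other genes were tested and 0 were called by edgeR, with log2 fold changes between -0.94 and 0.61 and a smallest adjusted p of 0.563, while 2 had an unadjusted p under 0.05. The nearest genes on the left, *Sec6*, which encodes a subunit of the exocyst, and *Atg7*, an enzyme of autophagy, had log2 fold changes of 0.21 (standard error 0.27) and 0.61 (0.44). Those on the right were *zda* at 0.07 (0.33) and *CG30122* at 0.21 (0.33). In *Sec6* the levels were 36.7, 31.0 and 42.0 CPM in *CSE-/-* and 30.2 and 32.9 CPM in the control, so the groups overlapped at a gene that ends within 1 kb of *CSE*.

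**Figure D1:**
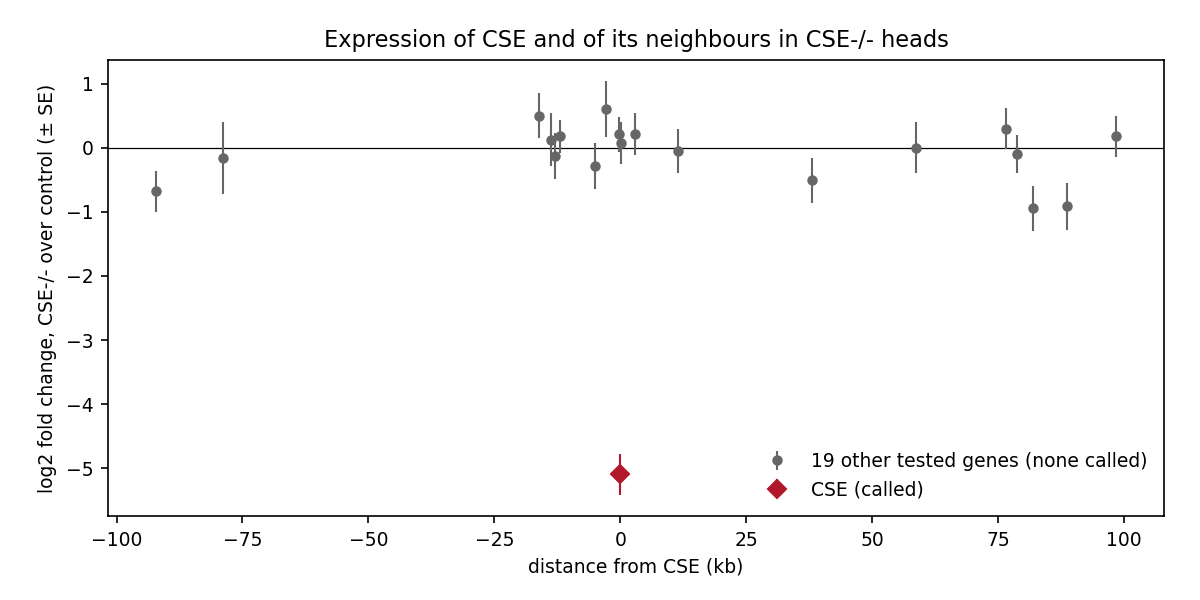
Log2 fold change of *CSE-/-* over the control (y axis, bars are standard errors) against the distance from *CSE* in kb (x axis) for *CSE* (red) and the 19 other tested genes within 100 kb (grey). *CSE* stood at -5.10, while the other genes lay between -0.94 and 0.61 and none was called.

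The other enzymes around *CSE* showed no call in either direction. Of 8 genes of transsulfuration and sulfide metabolism, 7 were tested and *CSE* was the 1 called, with a median log2 fold change of -0.30 over the tested members and 0.01 over all genes tested. *CBS*, which supplies cystathionine, was at 121, 68.1 and 92.8 CPM in *CSE-/-*, against 174 and 202 CPM in the control. All 3 *CSE-/-* libraries were below the control, but the log2 fold change of -1.0 (standard error 0.31) did not pass the threshold (edgeR adjusted p = 0.388). *MST* (*CG12279*) was at 38.5, 18.5 and 35.1 CPM in *CSE-/-*, against 29.8 and 41.5 CPM in the control, and these levels overlapped (log2 fold change -0.22, standard error 0.36, edgeR adjusted p = 0.960). This gene overlaps *PolQ* on the opposite strand, and the strand setting of the counting is not given in the sources used here. The other members of the list were not called either, with log2 fold changes of -0.30 for *Sqor* (sulfide quinone oxidoreductase), 0.03 for *CG30022*, -0.58 for *shop*, a sulfite oxidase, and -0.19 for the cysteine desulfurase *Nfs1*. *CG5493* had 0 counts in all 5 libraries.

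The methionine cycle, which delivers homocysteine, had 0 of 11 members called by edgeR and 1 lower by DESeq2, and its median log2 fold change was -0.58. At an unadjusted p under 0.05 by edgeR 4 members were lower, where 4.98% of all tested genes were. The gene that differed most was *Gnmt*, glycine N-methyltransferase, which uses up S-adenosylmethionine. It was at 68.4, 18.1 and 155 CPM in *CSE-/-*, against 927 and 1421 CPM in the control, without overlap. With a log2 fold change of -3.87 (standard error 0.74) its edgeR adjusted p was 0.0697. *Ahcy*, which makes homocysteine, was at 158, 91.1 and 214 CPM in *CSE-/-* and 163 and 302 CPM in the control, with overlap. Of the 12 genes of serine, glycine and folate metabolism 0 were called by edgeR and 1 higher by DESeq2, 10 of them had negative log2 fold changes, and *CG8665*, chosen after its values were seen, had the largest positive one at 1.97 (edgeR adjusted p = 0.142). The 16 tested genes of glutathione synthesis and antioxidant defence, the 31 glutathione S-transferases and the 13 genes of the amino acid response also had 0 calls by edgeR, with medians of -0.13, -0.16 and 0.11, and DESeq2 called 1 lower glutathione S-transferase. *Sod1*, the cytosolic superoxide dismutase, was at 2148, 979 and 2253 CPM in *CSE-/-*, against 2188 and 2976 CPM in the control.

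Of 9386 genes tested, 53 fell (0.565%) and 20 rose (0.213%) in *CSE-/-* at an edgeR adjusted p under 0.05, 73 in all (0.778%). Each of the 73 had an absolute log2 fold change of at least 1 and no overlap between the 3 *CSE-/-* and the 2 control libraries, so that only large changes passed with these 5 libraries, and such a separation was seen in 23.8% of all tested genes (12.6% lower and 11.2% higher). At an unadjusted p under 0.05, 467 genes were lower (4.98%) and 199 higher (2.12%), 666 in all (7.10%). The calls depended on the tool, DESeq2 calling 120 lower and 47 higher genes, and on which libraries entered. Without *CSE-/-* replicate 1, 10 lower and 6 higher genes were called and 57 of the 73 lost their call, whereas without *CSE-/-* replicate 4 there were 258 and 54 and none was lost. Without control replicate 3 there were 32 and 11, without control replicate 1 64 and 12, and without *CSE-/-* replicate 3 33 and 17.

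The 16 genes called in every one of the 5 fits that left out 1 library were *CSE*, *TotA*, *TotC*, *Lsp1alpha*, *Jon65Ai*, *CG33459*, *CG15369*, *CARPB*, *CG13794* and *ACXD* among the lower genes, and *Cyp6a2*, *Nepl5*, *CG34215*, *CG10550*, *CG32750* and *Ugt36E1* among the higher ones. No called gene changed sign in any of these fits.

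**Figure D2:**
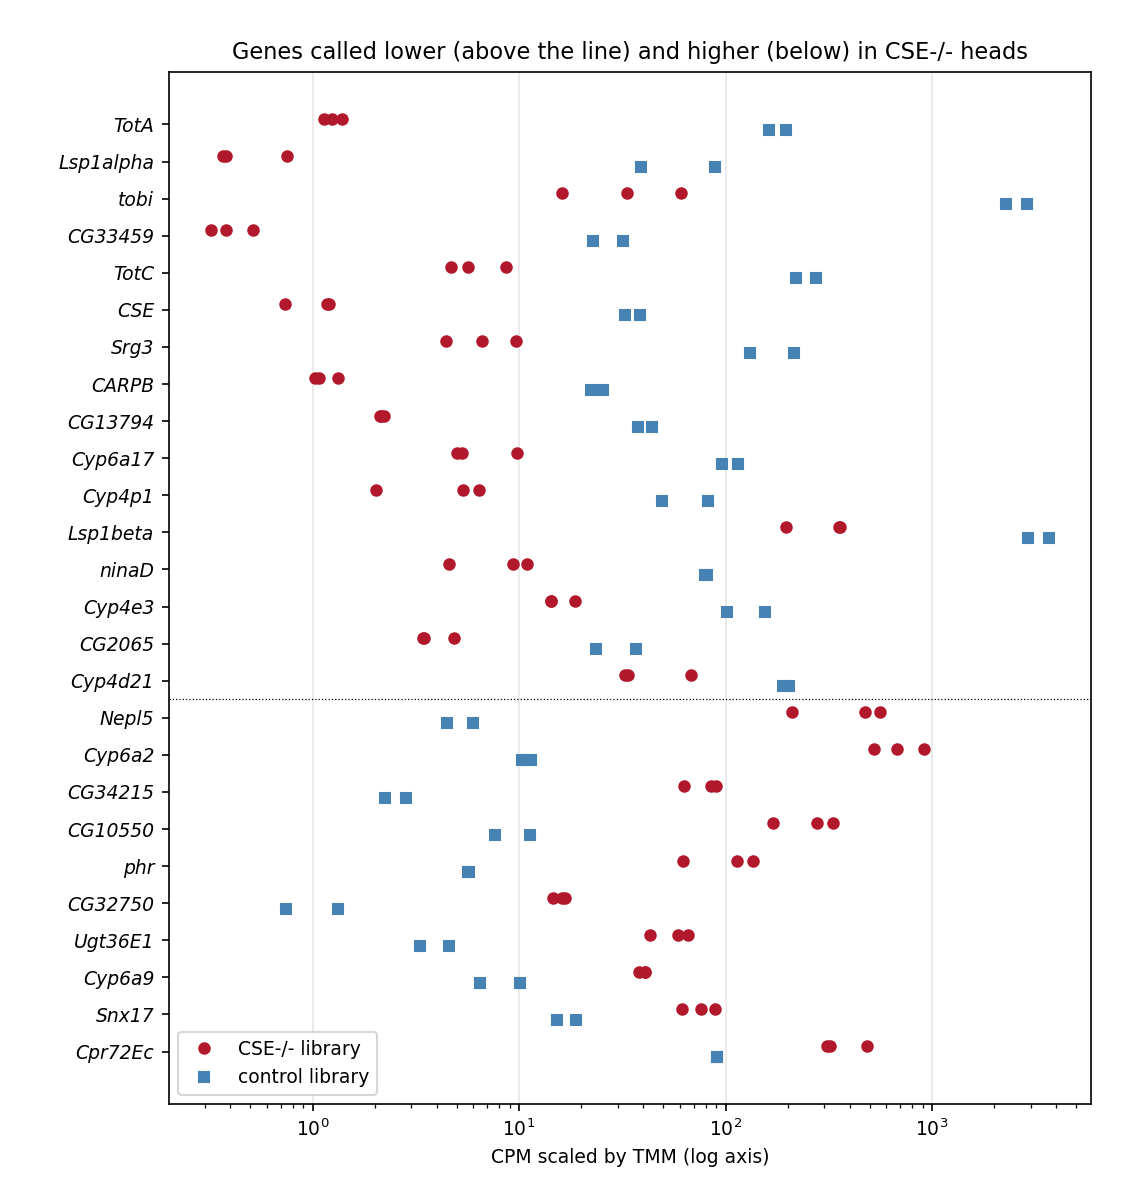
Level of 26 genes called in *CSE-/-* against the control, in each library (x axis, TMM-scaled CPM on a log axis), with *CSE-/-* libraries as red circles and control libraries as blue squares. The 16 genes above the dotted line were lower and the 10 below it higher in *CSE-/-*, and no *CSE-/-* library overlapped a control library.

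Of the Turandot genes *TotA* and *TotC* fell. *TotA*, a humoral stress peptide, was at 1.25, 1.14 and 1.39 CPM in *CSE-/-*, against 163 and 196 CPM in the control, a log2 fold change of -7.16 (standard error 0.31, edgeR adjusted p = 4.05e-05). No other gene had a smaller adjusted p. *TotC*, of the same family, was at 5.65, 4.68 and 8.67 CPM in *CSE-/-*, against 219 and 272 CPM in the control (log2 fold change -5.29, standard error 0.35). In both genes the spread between libraries of a group was small beside the gap between the groups. Of the 4 tested Turandot genes 2 fell and 0 rose, where 0.565% of all tested genes fell and 0.213% rose, and their median log2 fold change was -3.10. *TotX* was at 51.1, 33.4 and 20.1 CPM in *CSE-/-* and 85.3 and 45.0 CPM in the control, where the groups overlapped.

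Among 10 tested antimicrobial peptide genes, *Def*, which encodes defensin, fell alone, where 0.565% of all tested genes fell. It was at 12, 4.42 and 7.71 CPM in *CSE-/-*, against 44.4 and 35.5 CPM in the control (log2 fold change -2.32, edgeR adjusted p = 0.0369), and the median of the list was -0.56. *PPO2*, a prophenoloxidase that serves melanisation and is made by crystal cells, was at 19, 14.2 and 24.5 CPM in *CSE-/-*, against 57.1 and 87.2 CPM in the control (log2 fold change -1.91). *Srg2* and *Srg3*, named for their regulation by the antiviral protein STING, fell by 7.10 and 4.66 on the log2 scale. *Srg2* had 4 counts over the *CSE-/-* libraries and 216 over the control libraries, where it was at 8.83 and 24.1 CPM. Its call was lost without *CSE-/-* replicate 1 and without *CSE-/-* replicate 3, that of *Srg3* only without *CSE-/-* replicate 1. For *Srg3* the levels were 6.60, 4.42 and 9.63 CPM in *CSE-/-*, against 132 and 213 CPM in the control. The metallothionein *MtnE*, which binds heavy metals, was at 1.17, 1.01 and 1.71 CPM in *CSE-/-*, against 6.34 and 7.14 CPM in the control (log2 fold change -2.39). None of the 16 tested heat shock genes was called, and their median was 0.28. Hemocyte markers had 0 calls among 4 tested and summed to 153 to 306 CPM in *CSE-/-* and 194 and 342 CPM in the control.

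Storage proteins of the hemolymph were reduced as well. *Lsp1alpha*, a larval serum protein made by the fat body, was at 0.367, 0.379 and 0.749 CPM in *CSE-/-*, against 38.9 and 88.7 CPM in the control (log2 fold change -7.04, standard error 0.49, edgeR adjusted p = 0.000333). *Lsp1beta* was at 353, 196 and 359 CPM in *CSE-/-*, against 2901 and 3694 CPM in the control (log2 fold change -3.45, standard error 0.41). *Lsp2* pointed the same way at 255, 79.6 and 342 CPM in *CSE-/-*, against 1417 and 2577 CPM in the control, but its edgeR adjusted p was 0.0640 (log2 fold change -3.15, standard error 0.59). Thus these 3 larval serum proteins were lower in every *CSE-/-* library than in either control library, and 2 of them passed the test. *tobi*, a glucosidase gene known as a target of brain insulin, was at 33.4, 16.1 and 60.6 CPM in *CSE-/-*, against 2267 and 2889 CPM in the control (log2 fold change -6.14, standard error 0.60). This gene overlaps *rha* on the opposite strand. The fat body marker list, of which *Lsp2* and the lipoprotein *apolpp* are members, had 0 of 5 tested members called and summed to 734 to 1245 CPM in *CSE-/-* and 2383 and 3884 CPM in the control. In bulk RNA, fewer cells of a type and less RNA per cell cannot be told apart, and the part of the fat body markers in these values was not tested.

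Digestive enzymes were called in 1 direction. Of 42 tested members 6 fell and 0 rose (*Jon65Ai*, *Jon99Fii*, *Jon65Aii*, *mag*, *Amyrel* and *LManI*), where 0.565% of all tested genes fell and 0.213% rose. In this list 39 members had negative log2 fold changes and the median was -1.23. The Jonah genes encode serine proteases of the gut. *Jon65Ai* had 3 counts over the 3 *CSE-/-* libraries and 176 over both control libraries, a ratio of 162 between control and *CSE-/-* after scaling for depth (95% counting interval 54.5 to 792, which covers counting error only). *Jon99Fii* was at 0.440, 0.0632 and 0 CPM in *CSE-/-*, against 6.59 and 30.7 CPM in the control. *mag*, a lipase secreted into the gut, was at 0.440, 0.379 and 0.535 CPM in *CSE-/-*, against 5.35 and 30.1 CPM in the control (log2 fold change -5.28). For both of these the control libraries themselves differed, *Jon99Fii* being 4.66 times and *mag* 5.62 times higher in replicate 3 than in replicate 1. *LManI*, a lysosomal type mannosidase, was more even, with 19.8, 22 and 22.6 CPM in *CSE-/-*, against 64.0 and 83.7 CPM in the control (log2 fold change -1.79).

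Midgut markers, a list that also holds *mag*, were mostly lower too. They summed to 6634, 2166 and 13507 CPM in *CSE-/-* replicates 1, 3 and 4 and to 6937 and 19297 CPM in the control, 1 of 19 tested members was called (*mag*), and 18 had negative log2 fold changes. Control replicate 3 had the highest sum of the 5 libraries and *CSE-/-* replicate 3 the lowest, and the sums of the groups overlapped. *CSE-/-* replicate 4 had a higher sum than control replicate 1. In that *CSE-/-* library *mag* was at 0.535 CPM and *Jon99Fii* at 0, against 5.35 and 6.59 CPM in that control library. In control replicate 3, with the highest sum, *mag* and *Jon99Fii* were at 30.1 and 30.7 CPM. Without control replicate 3, *Jon65Aii*, *mag*, *Amyrel* and *LManI* lost their call, while *Jon65Ai* kept it in every fit that left out a library. The digestive enzyme list had 1 call without *CSE-/-* replicate 1, and 28 without *CSE-/-* replicate 4. The part of gut material in these values was not tested. Several called genes outside these lists also differed between the control libraries. *CG17571*, *CG7916*, *CG7953*, *Ser8*, *CG10472* and *CG8562* had log2 fold changes of -5.18 to -7.59 and were between 3.80 (*Ser8*) and 34.9 (*CG7916*) times higher in control replicate 3 than in control replicate 1.

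*CG33459*, *Erasp* and *CG18563*, which carry serine protease or protease homologue synonyms in the reference annotation and are in no list used here, fell as well. *CG33459* was at 0.513, 0.379 and 0.321 CPM in *CSE-/-*, against 22.9 and 31.9 CPM in the control (log2 fold change -6.02, standard error 0.36). *Erasp* was at 3.52, 0.759 and 4.17 CPM in *CSE-/-*, against 39.5 and 58.3 CPM in the control (-4.15). *CG18563* had 2 counts over the *CSE-/-* libraries and 55 over the control libraries, a ratio of 75.9 between control and *CSE-/-* (95% counting interval 20.0 to 642). *CG43055* had 0 counts in *CSE-/-* and 409 in the control. Against the floor of 3 counts over the group it was at least 376-fold lower in *CSE-/-*.

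Cytochrome P450 genes changed in both directions. Of 73 tested, 4 fell and 3 rose, where 0.565% of all tested genes fell and 0.213% rose, and their median log2 fold change was -0.27. *Cyp6a2*, an enzyme known for the metabolism of insecticides, was at 523, 673 and 914 CPM in *CSE-/-*, against 10.3 and 11.5 CPM in the control, a log2 fold change of 6.01 (standard error 0.46, edgeR adjusted p = 0.000519). *Cyp6a9* was at 37.9, 40.6 and 40.8 CPM in *CSE-/-*, against 10.1 and 6.48 CPM in the control (2.25, standard error 0.30). Both genes were higher in every *CSE-/-* library than in the control. *Cyp4p2* had 184 counts over the *CSE-/-* libraries and 1 over the control libraries, a ratio of 66.7 (95% counting interval 11.8 to 2649).

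In the other direction, *Cyp6a17*, which has been tied to temperature preference, was at 4.99, 5.31 and 9.74 CPM in *CSE-/-*, against 96.4 and 115 CPM in the control (log2 fold change -4.0, standard error 0.36). *Cyp4p1*, the neighbour of *Cyp4p2* on 2R, was at 5.35, 6.38 and 2.03 CPM in *CSE-/-*, against 49.2 and 82.4 CPM in the control (-3.82, standard error 0.45). These neighbours thus moved in opposite directions. *Cyp4e3* was at 18.7, 14.2 and 14.2 CPM in *CSE-/-*, against 101 and 155 CPM in the control (-3.03). *Cyp4d21*, a gene linked to male mating, was at 33.8, 68.0 and 32.8 CPM in *CSE-/-*, against 191 and 203 CPM in the control (-2.14). Reads of these tandem families can be shared between copies, and *Cyp6a9* also overlaps *Cyp6a19*, so that the values of single members are uncertain to that extent. *Ugt36E1*, a UDP-glycosyltransferase of the same detoxification system, was at 59.0, 42.9 and 65.4 CPM in *CSE-/-*, against 4.60 and 3.32 CPM in the control (3.80, standard error 0.36). It overlaps *CG17597*.

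**Figure D3:**
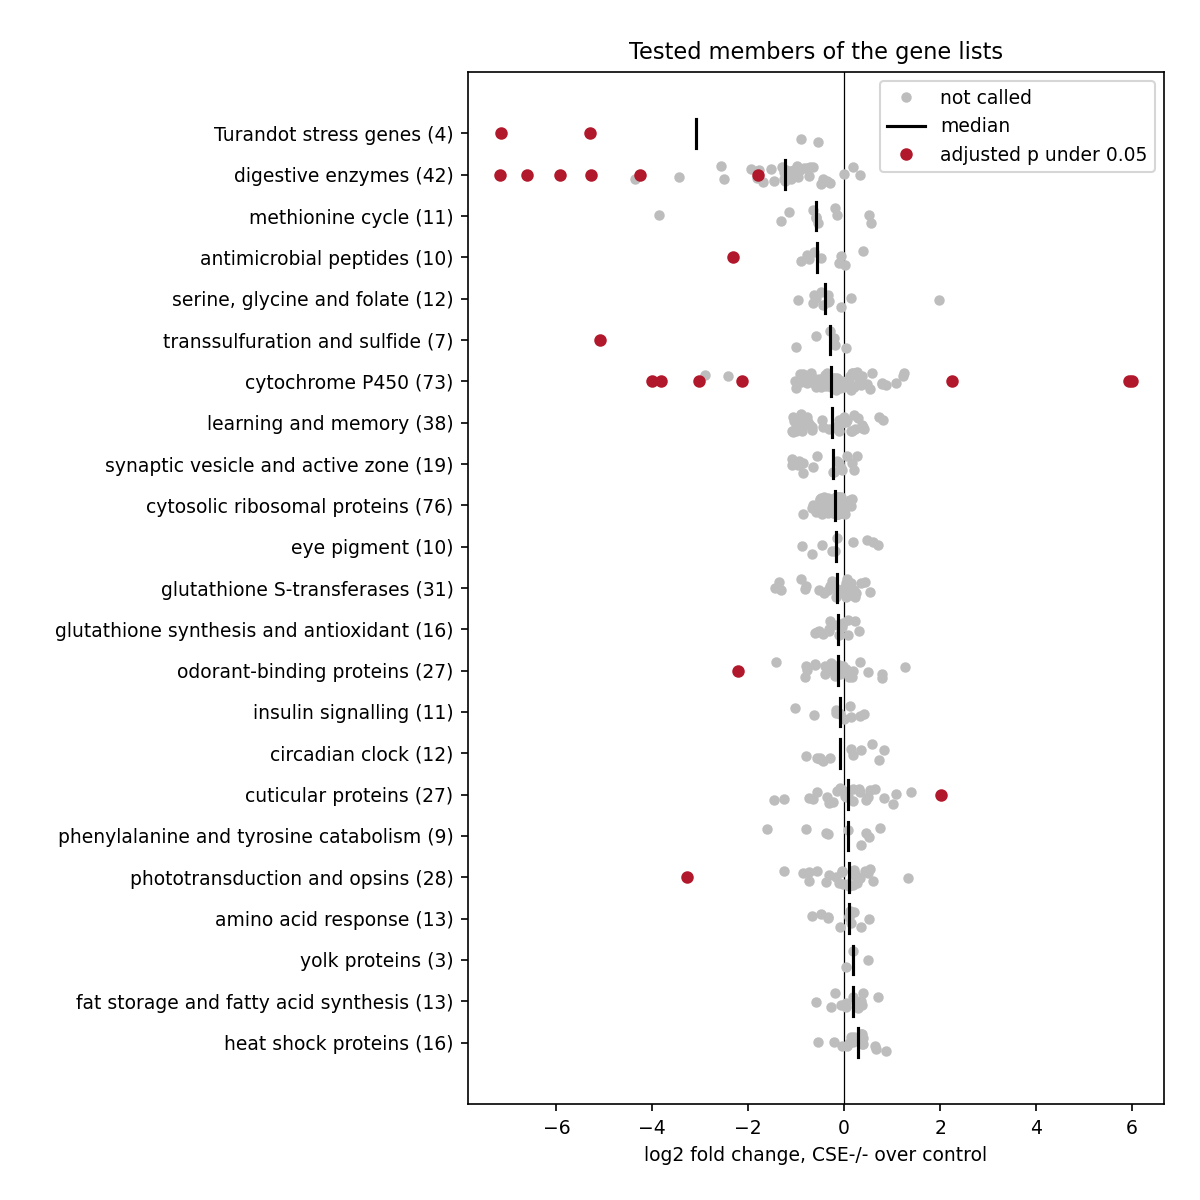
Log2 fold change of *CSE-/-* over the control (x axis) for each tested member of 23 gene lists (y axis, number of tested members in parentheses), with genes called at an adjusted p under 0.05 in red, other genes in grey and the list median as a black bar. Turandot genes and digestive enzymes had the lowest medians (-3.10 and -1.23), and P450 genes had calls on both sides of 0.

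Both photolyases of the fly rose. *phr*, which reverses cyclobutane pyrimidine dimers with the energy of light, was at 114, 61.9 and 136 CPM in *CSE-/-*, against 5.72 and 5.65 CPM in the control, a log2 fold change of 4.18 (standard error 0.43, edgeR adjusted p = 0.00280). *phr6-4*, which repairs the other main ultraviolet product, had 123 counts over the *CSE-/-* libraries and 3 over the control libraries, a ratio of 14.9 (95% counting interval 4.97 to 73.1). Its call (edgeR adjusted p = 0.0369) was lost in 4 of the 5 fits that left out 1 library, and that of *phr* in 1. The *phr* locus overlaps *Prosalpha1* on the opposite strand. Among the other genes that rose were *Nepl5*, a neprilysin-like peptidase, at 474, 211 and 559.6 CPM in *CSE-/-*, against 5.97 and 4.48 CPM in the control (6.30, standard error 0.58). A related gene, *Nepl10*, fell by 1.49 on the log2 scale. *CG34215* was at 85.4, 90.1 and 62.6 CPM in *CSE-/-*, against 2.24 and 2.82 CPM in the control (4.97, standard error 0.37). *CG10550* was at 277, 169 and 329.8 CPM in *CSE-/-*, against 11.3 and 7.64 CPM in the control (4.76, standard error 0.45). *CG32750* was even between libraries, with 16.2, 16.7 and 14.7 CPM in *CSE-/-*, against 0.746 and 1.33 CPM in the control (3.95, standard error 0.39).

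Smaller increases were those of *Top3beta*, a topoisomerase that also acts on RNA, the sorting nexin *Snx17*, the inward rectifier potassium channel *Irk3*, the serpin *Spn47C* and the cuticular protein *Cpr72Ec*, with log2 fold changes of 1.74, 2.14, 1.76, 1.90 and 2.03. *Cpr72Ec* was the 1 called member of 27 tested cuticular genes, where 0.778% of all tested genes were called. It was at 311, 319 and 485 CPM in *CSE-/-*, against 90.4 and 91.3 CPM in the control. *Irk3* overlaps *Grip71*. Of the genes of the piRNA pathway, which silences transposons in the germline, *squ* rose by 4.03 and *tej* fell by 2.71 on the log2 scale. Both are low in heads, *squ* at 4.55, 4.61 and 5.46 CPM in *CSE-/-*, against 0.249 and 0.332 CPM in the control, and it overlaps *grp* on the same strand.

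Genes of vision and of smell had 1 call each, where 0.778% of all tested genes were called. *ninaD*, a scavenger receptor that takes up carotenoids for the visual chromophore, was at 9.39, 10.9 and 4.60 CPM in *CSE-/-*, against 79.5 and 80.9 CPM in the control (log2 fold change -3.27, standard error 0.37, edgeR adjusted p = 0.00427). It was the single call among 28 tested genes of phototransduction, whose median was 0.09. The main opsin *ninaE* was at 11458, 20517 and 9708 CPM in *CSE-/-* and 11872 and 7692 CPM in the control, with overlap. Rhodopsin 6 (*Rh6*), chosen after its values were seen, was at 8.88, 10.3 and 8.24 CPM in *CSE-/-*, against 21.8 and 22.1 CPM in the control, but did not pass the threshold (-1.26, edgeR adjusted p = 0.0859). *Obp56h*, an odorant-binding protein with a role in mating behaviour, was at 4.55, 5.50 and 3.64 CPM in *CSE-/-*, against 19.5 and 22.9 CPM in the control (-2.21, standard error 0.29), the single call among 27 tested odorant-binding proteins. The median of that list was -0.12, and the most abundant member, *Obp99c*, was at 5088, 1795 and 5087 CPM in *CSE-/-* and 4594 and 5985 CPM in the control.

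Genes of learning and memory, which the behavioural part of the study concerns, had 0 calls by edgeR among 38 tested members, where 0.778% of all tested genes were called. At an unadjusted p under 0.05, 9 members were lower and 0 higher, where 4.98% of all tested genes were lower and 2.12% higher. The log2 fold change was negative in 25 members and positive in 13, with a median of -0.25. By DESeq2 the list had 0 calls too, and without *CSE-/-* replicate 4 it had 4 lower ones by edgeR. The most abundant member, *teq*, was at 318, 437 and 407 CPM in *CSE-/-* and 370 and 386 CPM in the control, with overlap (log2 fold change 0.03). *Gba1b*, a glucocerebrosidase and one of the most abundant members, was at 88.7, 37.9 and 105 CPM in *CSE-/-*, against 136 and 184 CPM in the control (log2 fold change -1.05, standard error 0.42, edgeR adjusted p = 0.604). *pum* was at 43.3, 41.7 and 52.8 CPM in *CSE-/-*, against 56.7 and 56.6 CPM in the control (-0.31). *Syt1*, the calcium sensor of synaptic release, was at 15.4, 25.3 and 38.3 CPM in *CSE-/-*, against 53.2 and 58.1 CPM in the control (-1.09, edgeR adjusted p = 0.479). Chosen after their values were seen, the amyloid precursor-like gene *Appl* (-1.0), *AGO1* of the microRNA pathway (-0.89) and the adenylyl cyclase *rut* (0.37) were not called either. In *Gba1b*, *pum* and *Syt1* each *CSE-/-* library was below both control libraries, as in 12.6% of all tested genes, and in *rut* the libraries overlapped. Synaptic genes had 0 calls among 19, with 5 lower at an unadjusted p under 0.05 and a median of -0.23. Neuron markers, 0 of 7 called with 4 lower at an unadjusted p under 0.05 and a median of -0.86, summed to 173 to 276 CPM in *CSE-/-* and 259 and 347 CPM in the control. The marker *elav* was at 1.91, 4.49 and 6.42 CPM in *CSE-/-*, against 11.8 and 8.97 CPM in the control. The part of neuronal RNA content in these values was not tested.

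In all, 8 of the 24 functional lists had a called member and 16 had none. The 291 tested members of these 16 lists had 26 lower and 3 higher genes at an unadjusted p under 0.05, where 4.98% of all tested genes were lower and 2.12% higher. DESeq2 called 3 lower and 1 higher member of these lists. Besides those given above, the lists without a call were the circadian clock (12 tested), insulin signalling (11), fat storage and fatty acid synthesis (13), eye pigment (10), yolk proteins (3), cytosolic ribosomal proteins (76), genes of the strain background (1) and the catabolism of phenylalanine and tyrosine (9). In the last of these, *Dhpr*, dihydropteridine reductase, was at 165, 88.9 and 148 CPM in *CSE-/-*, against 359 and 454 CPM in the control (log2 fold change -1.60, standard error 0.34, edgeR adjusted p = 0.108). The lists held 20 of the 73 called genes. Among the other 53, *CARPB*, a carbonic anhydrase-related gene, was at 1.03, 1.33 and 1.07 CPM in *CSE-/-*, against 25.4 and 22.2 CPM in the control (-4.36, standard error 0.31). The adenylyl cyclase *ACXD* was at 8.07, 5.63 and 5.35 CPM in *CSE-/-*, against 35.3 and 45.3 CPM in the control (-2.66, standard error 0.29). *CG13794* and *CG15369* had log2 fold changes of -4.24 and -4.47.

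Whether the same genes changed when *CSE* was lost on a *CBS-/-* background was asked next, by comparing the double deletion with the *CBS-/-* strains. There edgeR called 1325 genes down (14.4%) and 1226 up (13.3%) of 9230 tested, 2551 in all (27.6%). Of the 73 genes called in *CSE-/-* against the control, 59 were tested, 28 were called in the same direction (15 lower and 13 higher), 6 in the opposite direction and 25 were not called. The 15 shared genes are 28.3% of the genes lower in *CSE-/-* and 1.13% of those lower in the double deletion, and the 13 are 65.0% of the genes higher in *CSE-/-* and 1.06% of those higher in the double deletion. The calls on the *CBS-/-* background varied with the libraries, between 143 and 2043 lower and 180 and 1995 higher when 1 was left out, and 13 of the 28 shared genes were called in every such fit. They were *CSE*, *Cyp4p1*, *CG30082*, *CG42367*, *CG2065*, *ChLD3*, *Obp56h* and *Cyp4d21* among the lower genes and *phr*, *CG34215*, *Cyp6a2*, *Cpr72Ec* and *Irk3* among the higher ones. Both strains of a genotype entered as 1 group, and leaving out 1 library does not remove a strain. *CG42367* was at 3.03 and 3.12 CPM in *CBS-/-*(5), against 14.2 to 17.2 CPM in *CBS-/-*(8). With strains as groups, 25 of the 28 kept their call (13 lower, 12 higher).

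**Figure D4:**
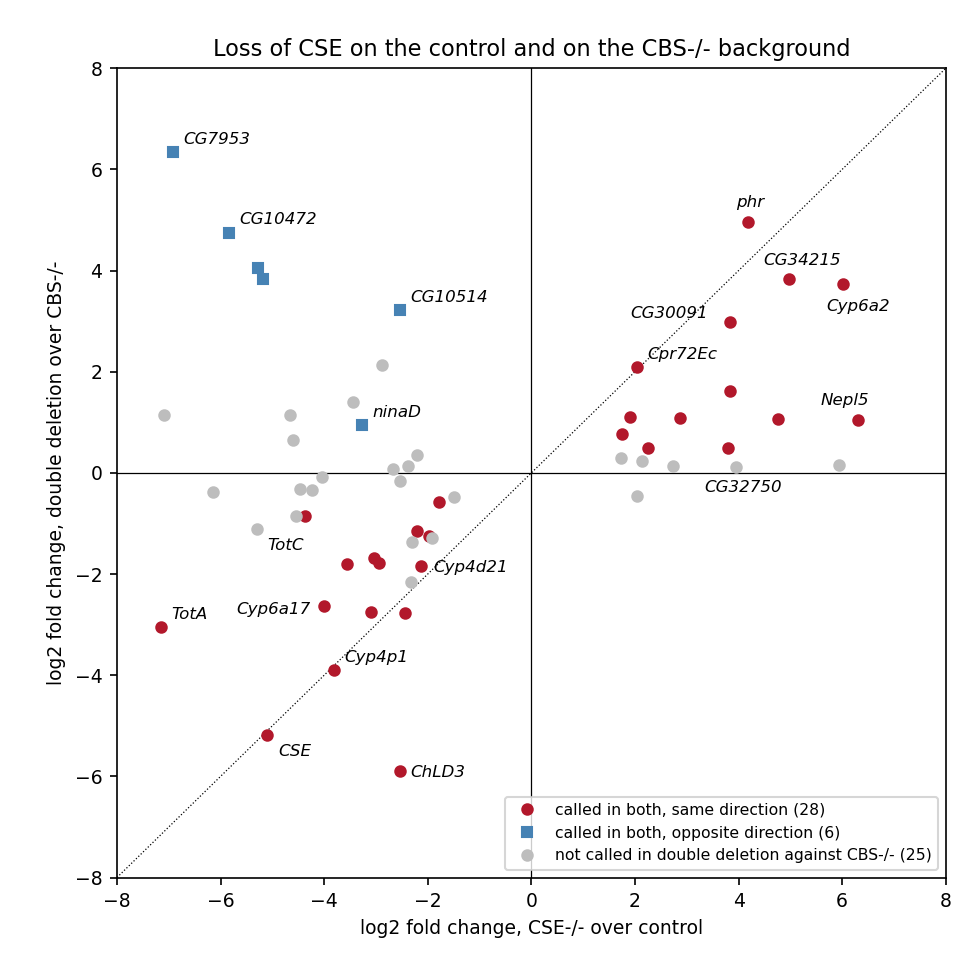
Log2 fold change of the double deletion over *CBS-/-* (y axis) against that of *CSE-/-* over the control (x axis) for the 59 genes called in *CSE-/-* and tested in both comparisons, which share no library, with the dotted line at equal changes. Red circles are the 28 genes called in the same direction, blue squares the 6 in the opposite direction and grey circles the 25 not called in the double deletion, and *CSE*, *Cyp4p1* and *Cpr72Ec* lay near the line.

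*CSE* itself was at 0.865 to 1.73 CPM (median 1.18) in the double deletion, against 32.7 to 67.9 CPM (median 42.4) in *CBS-/-*, a log2 fold change of -5.18 (standard error 0.25). *phr* repeated its increase, with 124 to 205 CPM (median 153) in the double deletion, against 2.79 to 7.46 CPM (median 4.95) in *CBS-/-* (4.96, standard error 0.30). *CG34215* was at 32.5 to 64.9 CPM (median 51.9) in the double deletion, against 2.48 to 4.31 CPM (median 3.58) in *CBS-/-* (3.83, standard error 0.22). *Cyp6a2* was at 615 to 1178 CPM (median 1058) in the double deletion, against 31.4 to 110.0 CPM (median 81.5) in *CBS-/-* (3.74, standard error 0.33). Among the genes that fell, *Cyp4p1* was at 0.275 to 7.49 CPM (median 4.57) in the double deletion, against 45.1 to 102 CPM (median 51.8) in *CBS-/-* (-3.90, standard error 0.56). *CG2065* was at 4.67 to 7.0 CPM (median 5.48) in the double deletion, against 16.1 to 21.5 CPM (median 21.0) in *CBS-/-* (-1.79, standard error 0.15). *ChLD3*, a chitin deacetylase-like gene that overlaps *LSm7*, was nearly absent with 0 to 0.103 CPM in the double deletion, against 1.48 to 6.70 CPM in *CBS-/-* (-5.89, standard error 0.66). *TotA* ranged from 0.994 to 55.3 CPM (median 24.3) in the double deletion, against 127 to 327 CPM (median 271) in *CBS-/-* (-3.05, standard error 0.75).

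Over all 15 libraries, 18 of the 73 genes separated the 8 libraries without *CSE* from the 7 with it, 10 lower and 8 higher, where 0.629% of all tested genes did so (0.320% lower and 0.309% higher). Besides *CSE* they were *TotA*, *CG18563*, *CARPB*, *Cyp4p1*, *CG30082*, *CG2065*, *ChLD3*, *Obp56h* and *CG9733*, and *Cpr72Ec*, *Spn47C*, *Cyp6a9*, *Ugt36E1*, *squ*, *phr*, *CG34215* and *Cyp6a2*. The 5 libraries of the first comparison take part in this count and in those that follow. All 73 genes had no overlap between *CSE-/-* and the control, against 23.8% of all tested genes. Shares above those of all genes are thus partly set by the choice of the 73. The control stood apart from all 13 deletion libraries in 39 of the 73. The deletion libraries were lower than the control in 25 of them and higher in 14. Of all tested genes 9.14% stood apart in this way, 5.83% lower and 3.31% higher in the deletion libraries. Among the 39 were *Lsp1alpha*, *Lsp1beta*, *ninaD*, *CARPB*, *Nepl5* and *CG32750*. *CG32750* was at 10.3 to 14 CPM in the 10 libraries of the double deletion and *CBS-/-* strains, *CARPB* at 0.458 to 1.66 CPM and *Lsp1alpha* at 0 to 0.468 CPM. For these 3 genes the *CBS-/-* strains, which keep *CSE*, thus stood on the same side of the control as *CSE-/-*. Also among the 39 were *CG18563*, *CG30082*, *CG2065*, *ChLD3*, *CG9733*, *Cpr72Ec*, *Cyp6a9*, *Ugt36E1* and *Cyp6a2*, which like *CARPB* separated the libraries by *CSE*. *Cyp6a2* was at 31.4 to 110.0 CPM in *CBS-/-*, against 10.3 and 11.5 CPM in the control. The *CSE-/-* strain stood apart from the 12 other libraries in 13 genes, 7 lower and 6 higher (0.863% of all tested genes, 0.373% lower and 0.490% higher), including *tobi*, *TotC*, *ACXD*, *Obp56h*, *Spn47C* and *squ*. *TotC* was at 66.7 to 325 CPM in the double deletion and 273 to 618 CPM in *CBS-/-*, and *tobi* at 147 to 1726 CPM in the double deletion and 91.6 to 2204 CPM in *CBS-/-*.

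**Figure D5:**
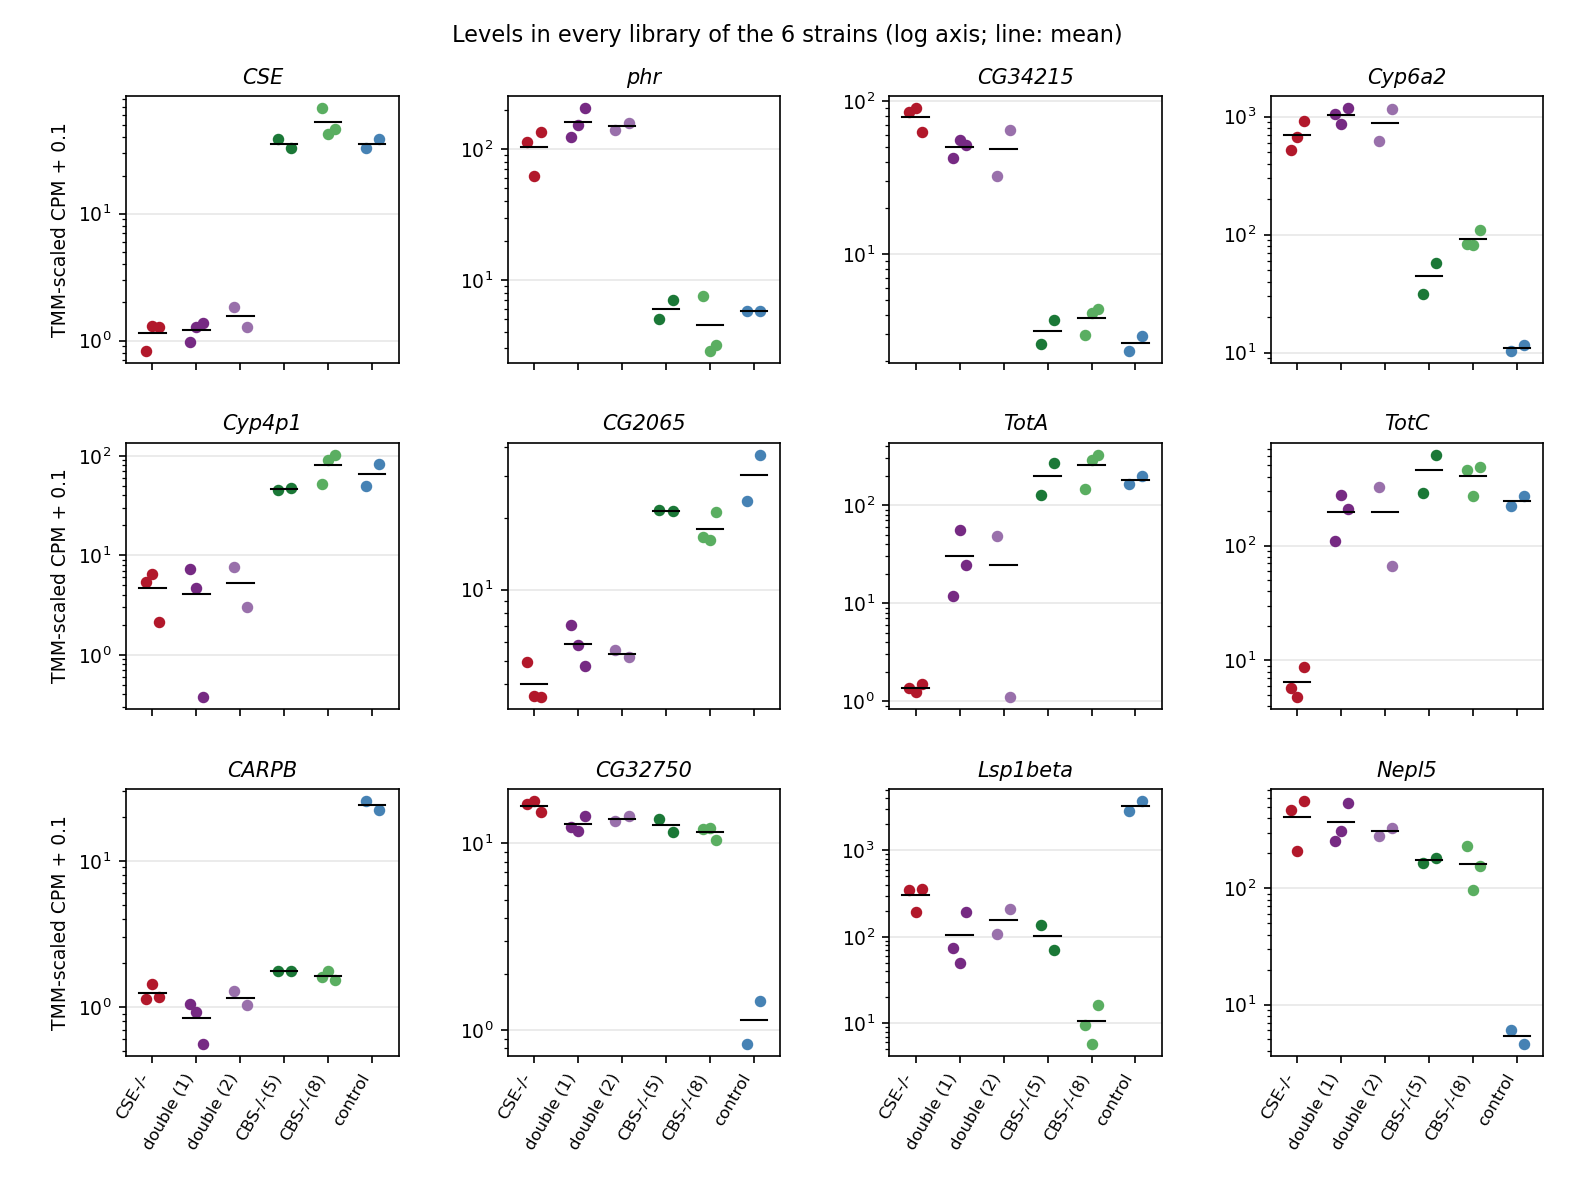
Levels of 12 genes (TMM-scaled CPM plus 0.1, log axis) in each library of the 6 strains, with *CSE-/-*, double deletion (1) and (2), *CBS-/-*(5) and (8) and the control from left to right and the strain mean as a line. *phr*, *CG34215*, *Cyp6a2*, *Cyp4p1*, *CG2065* and *TotA* separated strains without *CSE* from strains with it, and *TotC* was low in *CSE-/-*. *CARPB*, *CG32750*, *Lsp1beta* and *Nepl5* set the control apart from every deletion strain. *Cyp6a2* and *CG2065* also set the control apart, and *CARPB* also separated strains by *CSE*.

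The called genes were unevenly spread over the chromosomes. Chromosome arms 2L and 2R held 37.8% of the tested genes and 44 of the 73 called genes (60.3%). On them 1.24% of tested genes were called, against 0.568% on 3L, 0.567% on 3R and 0.328% on X. Of the 28 genes called in the same direction on both backgrounds, 22 (78.6%) lay on chromosome 2, while 41.1% of all genes called in the double deletion against *CBS-/-* did. *CSE* is on 2R. The 22 other called genes of 2R lay 571 to 11846 kb from it (median 4759 kb), with 1 of them within 1000 kb, *CG10912*. Whether other differences on the chromosome that carries the deletion take part in these calls was not tested.

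The change between backgrounds was tested directly as the effect of losing *CSE* with *CBS* absent minus that with *CBS* present, over all 15 libraries. The difference was called for 29 of the 73 genes, where 0.977% of 9927 tested genes were (0.252% negative and 0.725% positive), and 8 of them were at the floor of 3 counts in a genotype. The 73 genes were chosen by an effect that enters the difference, so a share above that of all genes is partly set by that choice. *ninaD* fell by 3.27 on the log2 scale in *CSE-/-* against the control and was higher by 0.94 in the double deletion against *CBS-/-*, a difference of 4.21. There it was at 7.76 to 12.8 CPM in the double deletion and 3.49 to 5.97 CPM in *CBS-/-*. *Cyp6a9*, *Ugt36E1*, *CG10550* and *Nepl5* rose on both backgrounds but by less on that without *CBS*, with differences of -1.75, -3.30, -3.70 and -5.25. In these genes and in *ninaD* the control stood apart from every deletion library, those of *CBS-/-* included. For *phr*, *Cyp4p1*, *Cpr72Ec* and *CSE* the differences were 0.78, -0.09, 0.06 and -0.08 and were not called, which does not show that the effects were equal.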

How the data were processed

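Heads of naive males were pooled and polyadenylated RNA was sequenced from a strand-preserving library. The authors deposited raw read counts per gene and library. The submitters' processing notes name Trimmomatic, STAR, SAMtools, featureCounts and the dm6 build, while versions, annotation release and strand setting are not given in the sources used here. Of 17453 gene identifiers, 17179 matched a symbol in the BDGP6 annotation. Lines that name no gene (no feature, ambiguous) were left out. Reads without a feature came to 4.10 to 5.78% in *CSE-/-* and 2.84 and 7.24% in the control, and ambiguous reads to 5.13 to 5.52% in *CSE-/-* and 6.70 and 8.27% in the control.

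Groups were taken from the sample labels. Genes were filtered with filterByExpr, scaled by TMM and tested with the quasi-likelihood test of edgeR 4.0.16 in R 4.3.3, fitting only the libraries of each comparison, and p-values were adjusted by Benjamini-Hochberg over all genes tested (threshold 0.05). The difference between both effects of losing *CSE* was fitted over all 15 libraries. Standard errors were derived from the log2 fold change and its F statistic. Levels are TMM-scaled CPM over the 15 libraries. Ratios with few counts have exact 95% intervals for counting error only. The fits were tested on simulated data with known changes. Those data had the same dispersion for all genes and no library effects, so they do not cover the spread between replicates seen here. DESeq2 1.42.0, other filters and scalings, thinning, a replicate block and leaving out each library served as alternatives.

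Genes named are the list of transsulfuration and sulfide genes, the 15 lower and 10 higher called genes of largest change without overlap, called list members, the 2 tested genes nearest *CSE* on each side, and up to 3 members of highest level per list. Other genes described were chosen after their values were seen. Members and lists were chosen with earlier results of these data known.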

Additional observations from a re-analysis of the deposited data

Results flagged for a closer look

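For 21 genes called in *CSE-/-* against the control, the effect of losing *CSE* on the *CBS-/-* background differed from that with *CBS* present, by edgeR's test of the difference over all 15 libraries. Values are differences of log2 fold changes, the effect in the double deletion against *CBS-/-* minus that in *CSE-/-* against the control. Of the genes that fell in *CSE-/-*, those called in the opposite direction in the double deletion were *CG7953* (13.27), *CG10472* (10.60), *mag* (9.32), *CG10514* (5.76) and *ninaD* (4.21). All of these but *ninaD* ranged widely between libraries of one genotype. *CG7953* ran from 0.432 to 229 CPM in the double deletion and from 0 to 3.73 CPM in *CBS-/-*. *CG10514* ran from 12.3 to 167 CPM in the double deletion, with a median of 15.8 CPM. Midgut markers summed to 13049 to 38117 CPM in the double deletion and 193 to 32164 CPM in *CBS-/-*, and their part in these differences was not tested. *ninaD* was even, as given above.

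The difference was positive for the other genes that fell, *CG33459* (7.04), *Srg3* (5.81), *CG31380* (5.25), *Erasp* (4.37), *TotC* (4.18), *CG15369* (4.17), *CARPB* (3.52), *ACXD* (2.75) and the long non-coding RNA *lncRNA:CR31781* (2.55). It was negative for the genes that rose, *Nepl5* (-5.25), *CG32750* (-3.83), *CG10550* (-3.70), *Ugt36E1* (-3.30), *Snx17* (-1.91), *Cyp6a9* (-1.75) and *Top3beta* (-1.44). The genes were chosen by their call in *CSE-/-* against the control, an effect that enters the difference, so its call and its sign are partly set by that choice. In these genes other than *CG31380* and *TotC*, and in *ninaD*, the control stood apart from every deletion library. There the *CBS-/-* strains, which keep *CSE*, lay on the same side of the control as *CSE-/-*. *CARPB* was at 1.44 to 1.66 CPM in *CBS-/-*, against 25.4 and 22.2 CPM in the control. *CG33459* and *Erasp* were not tested in the double deletion against *CBS-/-*.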

How the results depend on the processing

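The calls in *CSE-/-* against the control (53 lower, 20 higher) became 120 and 47 with DESeq2, 111 and 36 without the filter on low counts, 87 and 47 in one fit of all 15 libraries, and 22 and 7 at an adjusted p under 0.01. With at least 10 counts in every library 34 were lower. Leaving out 1 library gave 10 to 258 lower and 6 to 54 higher genes. In the double deletion against *CBS-/-* (1325 lower, 1226 higher), 817 were lower without the filter, 64 and 77 passed an adjusted p under 0.01, 161 and 198 had a log2 fold change of at least 1, and leaving out 1 library gave 143 to 2043 and 180 to 1995. The difference between the effects (25 lower, 72 higher) was called for 161 and 355 genes with DESeq2, 64 and 270 with strains as groups, and 7 to 236 and 22 to 423 when 1 library was left out. The causes were not tested.

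With the replicate number as a block the counts were 177 and 32 in *CSE-/-* against the control, 21 and 25 in the double deletion against *CBS-/-* and 11 and 30 for the difference, and 8 of the 28 genes called in the same direction on both backgrounds (4 lower, 4 higher) kept their call in the double deletion. *CSE-/-* and control libraries that carry one number did not deviate together (correlation of deviations 0.07 for number 1 and -0.61 for number 3), so the numbers were not taken as a pairing there. That check did not include the double deletion and *CBS-/-* libraries. Log2 fold changes near 0 changed sign when 1 library was left out, ranging from -0.438 to 0.0675 for *CG12279*, -0.0739 to 0.167 for *CG30022*, -0.329 to 0.0179 for *Nfs1*, -0.241 to 0.273 for *zda* and -0.0345 to 0.528 for *CG30122*. No called gene changed sign. Depth limits genes under the floor of 3 counts, and 2 control libraries of 1 strain set the precision of every fold change.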
